A study of Mus musculus with 6 samples.

Results

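The genes described here encode the proteins of the cytosolic ribosome. They were taken from the count table by name, as protein-coding genes whose symbol is Rpl or Rps followed by a digit, together with Rplp0, Rplp1, Rplp2 and Rpsa. Processed pseudogenes with -ps in their name and the Rps6k kinases were left out. Of 48795 genes in the table, 92 symbols followed this naming and 86 were protein-coding. They comprise 77 canonical ribosomal proteins, 8 paralogs (copies such as Rpl3l that can stand in for a canonical protein) and Rps19bp1. The last binds a ribosomal protein but is not part of the ribosome.

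RNA sequencing was done on quadriceps, a mostly fast-twitch thigh muscle, of male C57BL/6 mice aged 20 weeks. In MERKO mice the estrogen receptor ERα, encoded by Esr1, was deleted in muscle, and wild-type mice of the same strain, sex and age served as control. There were 3 libraries per group, and the labels do not say whether each came from a separate mouse, so a p-value speaks only of how much these libraries vary. The promoter that drove the deletion and the littermate status of the controls are not stated in the labels. The subject of the series, per its title, is mitochondrial dynamics and metabolism, and ribosomal proteins are not named there.

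The ribosome has a large subunit, which joins amino acids, and a small subunit, which reads the mRNA. Their proteins are made in equal amounts, and their mRNAs mostly begin with a C followed by a run of pyrimidines, the 5′ terminal oligopyrimidine or TOP tract, through which mTOR controls their translation. In skeletal muscle, ribosome content sets much of the capacity for protein synthesis and growth, and Rpl3 is largely replaced by its muscle paralog Rpl3l.

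The targeted gene was checked first. Esr1 stood at 7.88 ± 1.39 CPM (counts scaled by library size with TMM factors, mean ± SD, n = 3) in MERKO and at 30.1 ± 4.59 CPM in control. All MERKO libraries were below all control libraries. The log2 fold change was -1.95 with an SE of 0.164 and an adjusted p of 0.0262 in the edgeR quasi-likelihood test, with Benjamini-Hochberg adjustment over the 13628 genes tested. The adjusted p was above the threshold of 0.05 without MERKO 1 (0.102), MERKO 2 (0.0576), control 2 (0.109) or control 3 (0.0632). Esr1 was the sole gene of the table that passed the threshold in the fit of genotype alone, and 51 genes passed it with the replicate number as a block. Muscle markers such as Ckm, Acta1 and Myh4 were abundant, and the 12 of them together took 119343 to 168654 CPM per library.

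The libraries held 14935532 to 44282448 counts, and their make-up differed within both groups. A gene model of ribosomal RNA made up 6.19%, 32.4% and 19.2% of the 3 MERKO libraries, in order, and 11.1%, 27.7% and 0.0433% of the 3 control libraries. Genes of mitochondrial DNA took 4.90% and 6.68% in MERKO 2 and control 2 and 10.4% to 11.02% in the other libraries. Summed slow-fibre markers were high in MERKO 1 and control 1, at 511 and 524 CPM, against 35.9 to 47.1 CPM in the other 4 libraries.

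Ribosomal protein mRNAs were lower in MERKO quadriceps almost without exception, but by a small amount that no gene carried past the threshold. Of the 86 genes, 82 had enough counts to be tested. None passed the adjusted threshold, which 0.00734% of all genes tested did, and none passed it with DESeq2 or limma-voom. Of the 82, 81 had a log2 fold change below 0, against 47.9% of all genes, and 25 were lower at an unadjusted p under 0.05, against 3.34% of all genes. In 34 of the 82, all 3 MERKO values lay below all 3 control values, which held for 7.1% of all genes. The median log2 fold change was -0.23, with an interquartile range of -0.28 to -0.19. Over all genes tested the median was 0.01 and the interquartile range -0.12 to 0.17. The genes share libraries and are not independent of each other, so these counts describe the group and do not replace a test across mice. In whole muscle, fewer cells rich in these mRNAs and less mRNA per cell cannot be told apart.

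**Figure D1:**
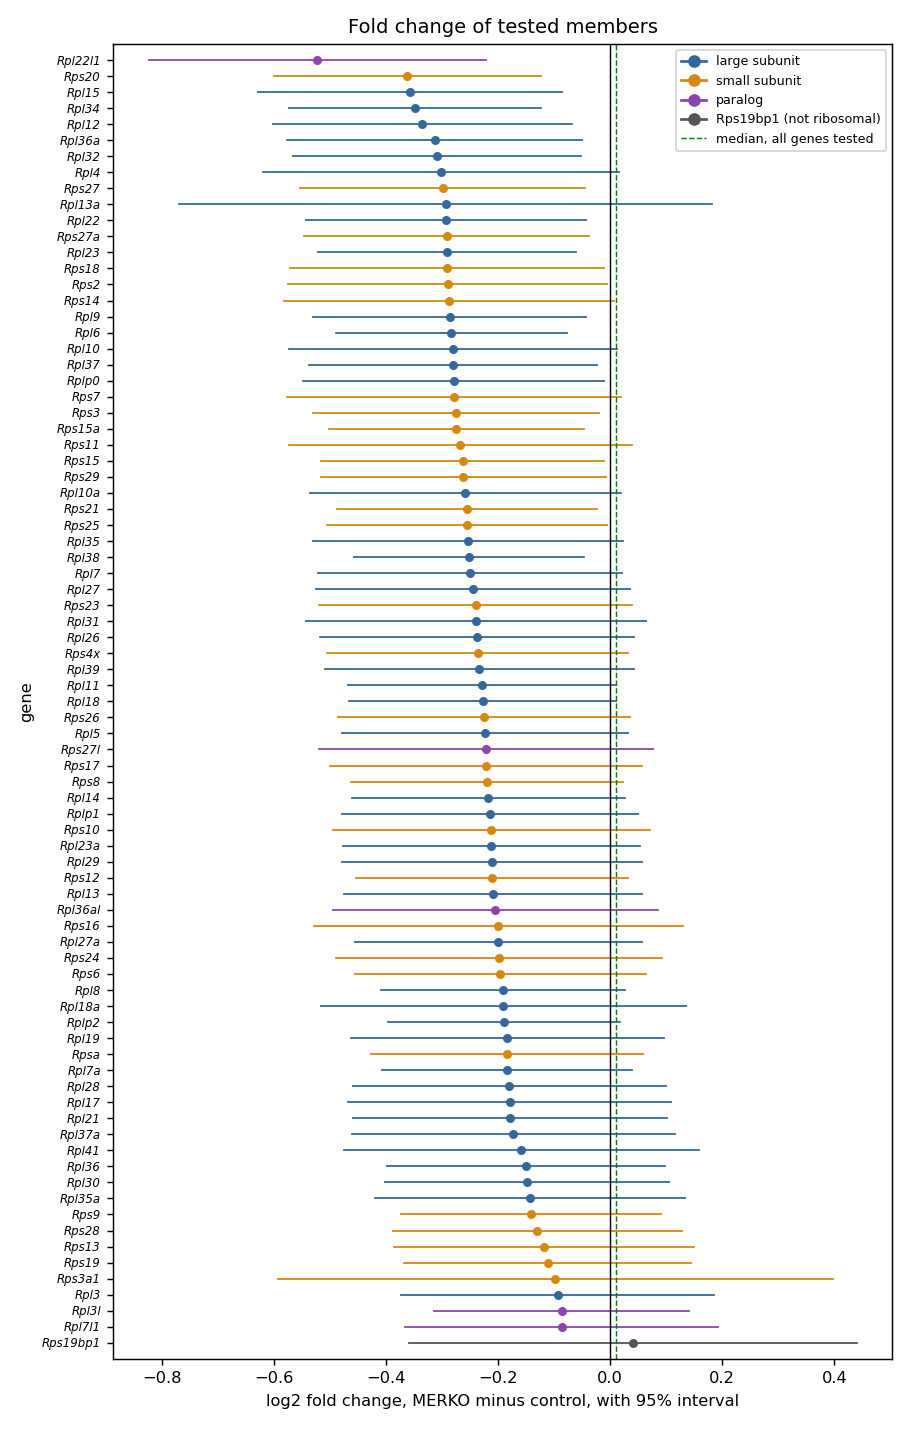
Log2 fold change of 81 of the 82 tested ribosomal protein genes (horizontal axis, MERKO minus control) with its 95% interval, coloured by subunit or class. Nearly all points lie between -0.36 and -0.09, Rpl22l1 stands furthest left at -0.52, and Rps19bp1 is the sole point right of 0.

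The summed level of all 86 genes was 6612, 6383 and 6724 CPM in MERKO 1 to 3 against 7701, 6853 and 8625 CPM in control 1 to 3. MERKO 2 was lowest and control 3 highest, and the groups did not overlap, although control 2 stood close to MERKO 3. The means were 6573 ± 174 and 7727 ± 886 CPM (SD, n = 3), so MERKO stood at 85.1% of control. The exact two-sided permutation test gave p = 0.1, the smallest that 3 against 3 libraries allow. With same-numbered libraries taken as pairs, MERKO was lower in each pair. The mean log2 difference was then -0.23, and an exact two-sided sign-flip test gave p = 0.25, the smallest that 3 pairs allow. As a share of all counts, which needs no scaling factor, these genes took 0.643 ± 0.169% in MERKO and 0.827 ± 0.239% in control (SD, n = 3, exact permutation p = 0.4). As a share of the counts of protein-coding genes of nuclear DNA they took 0.904 ± 0.110% and 1.07 ± 0.156% (n = 3, exact permutation p = 0.3).

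The size of the difference depended on which control library was looked at. Each gene was set relative to its own mean over the 6 libraries on the log2 scale, and the median over the 82 genes was taken per library. The MERKO libraries stood at -0.09, -0.15 and -0.09 in order of their number, and the control libraries at 0.12, -0.05 and 0.29. Control 3 was the highest library for 80 of the 82 genes and control 1 for the other 2, and MERKO 2 was the lowest for 36. Between the control libraries themselves, control 3 stood above control 2 in 82 of 82 genes with a median difference of 0.34. Control 2 stood above MERKO 1 and above MERKO 3 in 50 of 82 genes each, with a median difference of 0.03 in both cases. The spread within the control group was therefore larger than the difference between its lowest library and the MERKO group.

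**Figure D2:**
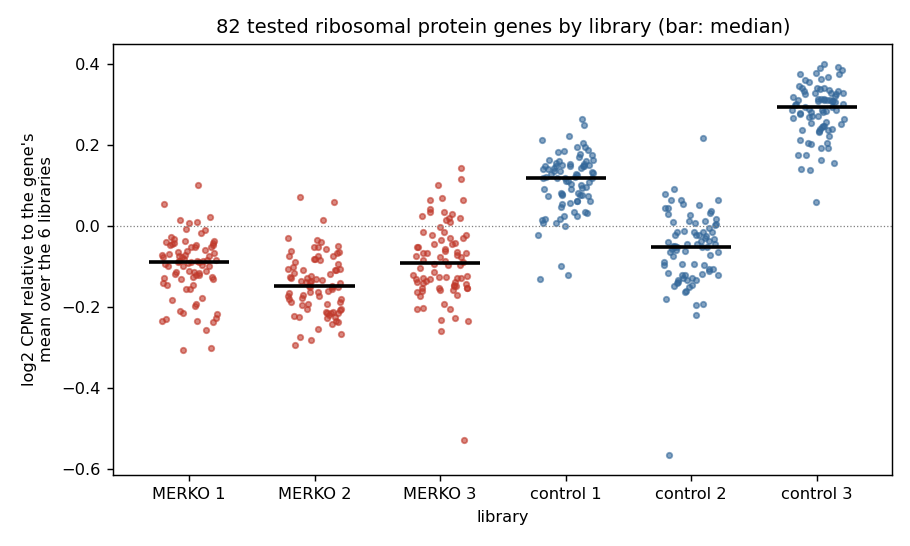
Level of the 82 tested genes in each library (vertical axis, log2 CPM relative to the gene's mean over the 6 libraries), 1 point per gene, with black bars at the medians. The medians of the MERKO libraries lie between -0.15 and -0.09, that of control 2 at -0.05 and that of control 3 at 0.29.

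Without control 3, 79 of 82 genes were still lower in MERKO, against 48.9% of all genes. The median was then -0.14, and 3 genes had an unadjusted p under 0.05. Without control 2 the median was -0.31 and 52 genes had one. Leaving out MERKO 2, MERKO 3 or control 1 left 6, 8 and 13 such genes, with medians of -0.21, -0.24 and -0.24. How many of all genes had such a p in these fits was not counted. With the replicate number as a block, 56 of the 82 members had one. Over all genes the number at an unadjusted p under 0.05, in either direction, then went from 960 to 1750 of 13628. No member passed the adjusted threshold with the block, where the lowest edgeR adjusted p was 0.141 for Rpl22l1. Without a factor for library composition the median was -0.36 while that of all genes was -0.10, a difference of -0.26, and 67.7% of all genes were below 0. No member then had an unadjusted p under 0.05. Control 3, the library with the highest levels, also held the most counts and almost no ribosomal RNA. MERKO 2 and control 2 held the most ribosomal RNA and the fewest counts. The part of depth and of ribosomal RNA content in the result was not tested.

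Markers of cells other than muscle fibres stood at unequal levels in the libraries, and none of them passed the adjusted threshold in the edgeR test. The 8 adipocyte markers, such as Adipoq, summed to 17.4 to 52.2 CPM in MERKO against 54.3 to 360 CPM in control, highest in control 2. All 7 tested were lower in MERKO at an unadjusted p under 0.05, against 3.34% of all genes, with a median log2 fold change of -2.28. The 8 tendon markers summed to 82.2 to 395 CPM in MERKO against 29.7 to 83.2 CPM in control. Of them, 7 were higher in MERKO and 1 lower, with a median log2 fold change of 2.21. At an unadjusted p under 0.05, 6 of the 8 were higher, against 505 of all 13628 genes tested. Schwann cell markers summed to 22.9 to 37.8 CPM and 13.7 to 22.9 CPM. All 6 were higher in MERKO, 2 at an unadjusted p under 0.05. Lymphocyte markers summed to 7.75 to 17.4 CPM and 6.68 to 8.16 CPM, with 5 of 7 at 0 counts in some library (among them Ms4a1, Cd79a, Cd3e and Cd3d). The adipocyte sums were apart between the groups. The tendon, Schwann cell and lymphocyte sums touched or overlapped at their ends, and the endothelial, macrophage, erythroid, satellite cell and fibroblast sums overlapped. No adipocyte, tendon or Schwann marker was at 0 counts. The part of these cells in the ribosomal protein difference was not tested.

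Both subunits were lower by similar amounts. Of the 45 tested canonical genes of the large subunit, all 45 were below 0, 12 at an unadjusted p under 0.05, with a median log2 fold change of -0.23. Of the 31 of the small subunit, all 31 were below 0, 12 at an unadjusted p under 0.05, with a median of -0.24. Among all genes tested, 47.9% were below 0 and 3.34% were lower at such a p. Summed large-subunit mRNA stood at 3598 ± 109 CPM in MERKO against 4245 ± 480 CPM in control, and summed small-subunit mRNA at 2650 ± 69.6 and 3127 ± 387 CPM (SD, n = 3). The ratio of the large to the small sum was 1.36 ± 0.0242 in MERKO and 1.36 ± 0.0290 in control (n = 3, exact permutation p = 1). The fold changes of the 82 genes were packed closely, with an interquartile width of 0.0902 on the log2 scale against 0.292 over all genes tested. The genes compared were not matched for expression level, so its part in the narrower width was not tested.

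In the large subunit, Rpl34 (chr3:130726831-130730398, minus strand, GRCm38) had the lowest p among canonical genes. It stood at 41.7, 43.3 and 44.4 CPM in MERKO 1 to 3 against 52.8, 50.7 and 60.9 CPM in control 1 to 3. Every MERKO library was below every control library, and the MERKO values were within 3 CPM of each other. The log2 fold change was -0.35 (SE 0.098, 95% interval -0.57 to -0.12) with an edgeR adjusted p of 0.654.

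Rpl6 (chr5:121204481-121209241), a protein of the outer face of the large subunit, stood at 99.9, 101 and 95.4 CPM in MERKO against 120, 114 and 127 CPM in control. The groups did not overlap, and the log2 fold change was -0.28 (SE 0.090, edgeR adjusted p 0.668). Rpl15 (chr14:18267823-18271391), a core protein of the large subunit, stood at 60.0, 56.1 and 54.5 CPM in MERKO against 70.7, 63.4 and 84.0 CPM in control. Here too the groups were apart, but control 3 was far above control 2, and the log2 fold change was -0.36 (SE 0.118, edgeR adjusted p 0.671).

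The stalk of the large subunit, which recruits the elongation factors, is built from Rplp0 with pairs of Rplp1 and Rplp2. Rplp0, one of the most abundant mRNAs of the group, stood at 316, 279 and 293 CPM in MERKO against 370, 321 and 388 CPM in control, a log2 fold change of -0.28 (SE 0.117, edgeR adjusted p 0.687). Control 2 was within 5 CPM of MERKO 1, and the groups just missed each other. Rplp1 stood at 162, 149 and 157 CPM in MERKO against 185, 156 and 199 CPM in control, with control 2 inside the MERKO range. Rplp2 stood at 85.2, 77.7 and 83.3 CPM in MERKO against 92.5, 89.3 and 98.9 CPM in control, with no overlap. The log2 fold changes of Rplp1 and Rplp2 were -0.21 and -0.19, with edgeR adjusted p-values of 0.713 each.

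In the small subunit, Rps20 (chr4:3831334-3835665, minus strand), a protein of the subunit's head, had the lowest p. It stood at 92.3, 97.7 and 97.1 CPM in MERKO against 121, 111 and 137 CPM in control. All 3 control libraries lay above all MERKO libraries, and the log2 fold change was -0.36 (SE 0.104, 95% interval -0.60 to -0.12, edgeR adjusted p 0.654).

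Rps15a stood at 63.8, 60.1 and 56.4 CPM in MERKO against 73.3, 66.4 and 78.3 CPM in control. Rps27 stood at 80.3, 78.6 and 70.7 CPM against 90.9, 85.3 and 106 CPM. Rps27a, which is made as a fusion with ubiquitin, stood at 51.8, 52.4 and 51.7 CPM against 58.0, 59.1 and 73.5 CPM. In all 3 genes the groups were apart, with log2 fold changes of -0.27, -0.30 and -0.29 and edgeR adjusted p-values of 0.680, 0.683 and 0.683. Rps2, which lines the mRNA entry, stood at 251, 211 and 242 CPM in MERKO against 298, 252 and 311 CPM in control, where control 2 was within 2 CPM of MERKO 1 (log2 fold change -0.29, SE 0.124, edgeR adjusted p 0.696). Rpsa, also known as the laminin receptor precursor, stood at 194, 185 and 212 CPM against 228, 206 and 237 CPM. MERKO 3 overlapped with control 2, and its log2 fold change was -0.18 (edgeR adjusted p 0.715).

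The canonical genes with the smallest differences were Rpl3, Rps3a1 and Rps19. Rps19, the gene most often mutated in Diamond-Blackfan anaemia, stood at 53.0, 48.2 and 46.6 CPM in MERKO against 56.7, 45.9 and 56.8 CPM in control. Control 2 was the lowest library of all 6, and the log2 fold change was -0.11 (SE 0.112, edgeR adjusted p 0.840).

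Rps3a1 differed from the rest of the group in 1 library. It stood at 107, 102 and 106 CPM in MERKO against 124, 71.7 and 140 CPM in control, so that control 2 was the lowest of all and controls 1 and 3 the highest. Its log2 fold change was -0.10 (SE 0.216, 95% interval -0.59 to 0.40, edgeR adjusted p 0.932). After removing the median of all members in control 2, Rps3a1 was still 0.51 lower there on the log2 scale, the largest such deviation of any gene in any library. A near-identical processed pseudogene, Rps3a3, had 227 counts in control 2 and 2 to 33 counts in the other 5 libraries. The sum of Rps3a1, Rps3a2 and Rps3a3 was 91.5 CPM in control 2, 125 and 142 CPM in the other control libraries and 103 to 108 CPM in MERKO. Whether reads of this gene were placed on its copy in control 2 was not tested. In all, 282 pseudogenes or noncoding copies of the group were listed. Together they held 0.268% to 0.282% as many counts as the members in 5 libraries and 0.563% in control 2.

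Among the paralogs, Rpl22l1 had the largest difference of all 82 tested genes and Rpl3l one of the smallest. All 5 tested paralogs had a log2 fold change below 0, with a median of -0.20, and 1 had an unadjusted p under 0.05. Rpl22l1 (chr3:28805436-28807424), the paralog of Rpl22, stood at 11.9, 12.7 and 9.38 CPM in MERKO against 16.2, 15.7 and 16.8 CPM in control. The groups were well apart, and MERKO 3 was lowest. The log2 fold change was -0.52 (SE 0.131, 95% interval -0.82 to -0.22), the largest of the 82, with an unadjusted p of 0.00382 and an edgeR adjusted p of 0.654. Its counterpart Rpl22 stood at 54.8, 54.8 and 54.7 CPM in MERKO against 64.4, 59.7 and 76.7 CPM in control, a log2 fold change of -0.29.

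Per kilobase of mRNA, Rpl22l1 held 0.187, 0.199 and 0.147 of the counts of Rpl22 in MERKO and 0.216, 0.226 and 0.188 in control. Such a ratio is taken within a library and does not depend on scaling between libraries. The MERKO ratios were lower on average by 0.25 on the log2 scale, but MERKO 2 overlapped with control 3 (n = 3 per group, exact permutation p = 0.2, adjusted over 5 pairs 0.5). The difference was -0.12 without MERKO 3 and -0.33 without MERKO 2.

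Rpl3l (chr17:24727820-24736143), the form of the Rpl3 protein found in heart and skeletal muscle, stood at 216, 219 and 236 CPM in MERKO against 249, 224 and 240 CPM in control. The ranges overlapped, and the log2 fold change was -0.09 (SE 0.099, 95% interval -0.31 to 0.14, edgeR adjusted p 0.859). Rpl3 stood at 31.1, 25.3 and 28.2 CPM in MERKO against 27.1, 29.0 and 34.2 CPM in control, for a log2 fold change of -0.09 (SE 0.122, edgeR adjusted p 0.875), and without control 3 it was 0.01. Per kilobase, Rpl3l made up 88.6 ± 1.21% of the pair in MERKO and 88.6 ± 1.35% in control (SD, n = 3, exact permutation p = 1). The ratio of Rpl3l to Rpl3 ranged from 6.83 to 8.49 in MERKO and from 6.91 to 9.02 in control. Its mean difference was 0.01 on the log2 scale and its sign turned with the library left out. The data thus show the muscle form as the main one in both groups.

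The other 3 pairs also overlapped. Rps27l, a paralog of Rps27 known as a target of p53, stood at 31.3, 34.3 and 34.5 CPM in MERKO against 37.9, 32.6 and 45.7 CPM in control. Rpl36al stood at 26.5, 32.1 and 33.5 CPM against 34.5, 31.6 and 39.6 CPM, while its X-linked counterpart Rpl36a stood at 24.2, 22.2 and 23.2 CPM against 26.4, 26.8 and 33.2 CPM. Rpl36a was apart between groups and Rpl36al was not, but the ratio of the pair differed by 0.10 on the log2 scale with an exact permutation p of 0.4 (n = 3). Rpl7l1, a nucleolar relative of Rpl7, stood at 22.7, 23.6 and 19.5 CPM against 24.7, 20.0 and 24.7 CPM, and Rpl7 at 155, 146 and 150 CPM against 175, 156 and 205 CPM. The ratio of Rpl7l1 to Rpl7 was 0.16 higher in MERKO on the log2 scale (exact permutation p = 0.2) and that of Rps27l to Rps27 0.09 higher (exact permutation p = 0.4, n = 3 per group), with adjusted values of 0.5 for both. Single libraries moved these differences. That of Rps27l to Rps27 was 0.0096 without MERKO 3 and 0.17 without MERKO 1, that of Rpl36al to Rpl36a 0.035 and 0.24 without the same libraries, and that of Rpl7l1 to Rpl7 0.087 without MERKO 2 and 0.24 without MERKO 3.

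**Figure D3:**
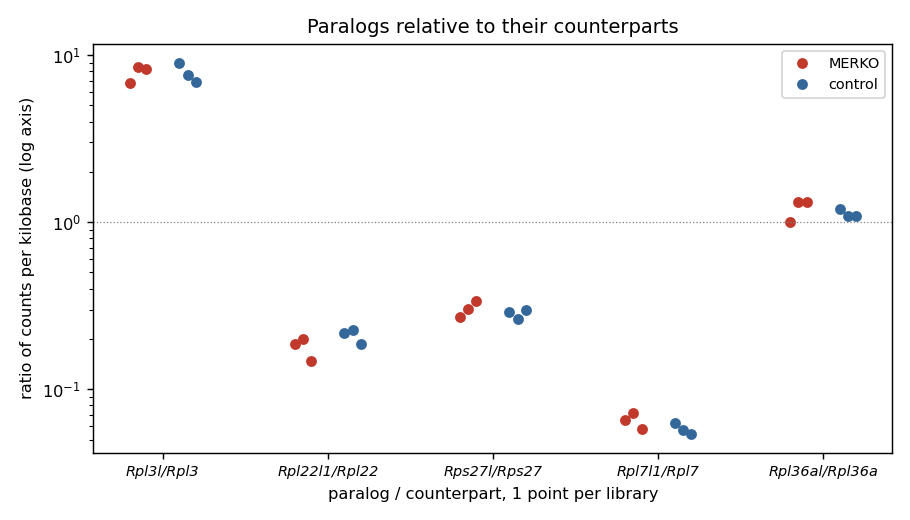
Ratio of each paralog to its counterpart in counts per kilobase (log axis), 1 point per library, MERKO in red and control in blue. Rpl3l exceeds Rpl3 by 6.83 to 9.02 times, Rpl36al is near parity with Rpl36a, and the other 3 paralogs are below their counterparts. The ranges of the groups overlap in all 5 pairs.

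Levels differed between members by far more than between groups. Compared per kilobase of the principal annotated mRNA, Rplp1 was highest at 312 CPM per kilobase in MERKO and 362 in control, followed by Rps2 at 235 and 287, Rps27 at 222 and 273 and Rplp0 at 218 and 265. Rpl3l stood at 163 and 173 and was thus among the more abundant members, while Rpl3 stood at 20.9 and 22.3. Rpl7l1 stood at 8.41 and 8.89. These values rest on the mRNA chosen. Rps15a, the lowest tested gene of the small subunit at 11.7 and 14.2, has a principal mRNA of 5130 bases, although the shortest of its 6 coding transcripts has 250 bases.

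Low values also went with overlapping annotation. Rpl13a, the lowest tested canonical gene of the large subunit, stood at 1.92, 2.02 and 1.78 CPM in MERKO against 2.10, 2.21 and 2.61 CPM in control, a log2 fold change of -0.29 (SE 0.207, edgeR adjusted p 0.764). Exons of Gm45713 on the same strand cover 59.3% of its principal mRNA. Rpl24, also of the large subunit, had 2, 3 and 4 counts in MERKO and 7, 2 and 10 in control and was too low to test. Exons of Gm28037 on the same strand cover 71.5% of its mRNA, and both Gm models had 0 counts in all libraries. The next highest such overlap was 10.7%, for Rpl19. How reads in shared exons were counted is not stated in the labels, so the levels of Rpl13a and Rpl24 are uncertain. On the opposite strand, exons of Wdr38 cover 68.3% of Rpl35, those of Tlcd1 55.4% of Rpl23a and those of Fam69a 46.6% of Rpl5. Those of Gm33051 cover 28.8% of Rpl22l1, the member with the largest difference. The handling of strand is not stated either, so the levels of these genes are uncertain too.

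The remaining 3 genes too low to test were paralogs. Rpl39l and Rpl10l, both best known from testis, had 1 to 17 and 0 to 9 counts in MERKO and 0 to 16 and 0 counts in control. Rps27rt, an intronless copy of Rps27, had 3 to 11 counts in MERKO and 7 to 27 in control. Rps19bp1, the non-ribosomal gene of the set, stood at 2.98, 3.28 and 3.42 CPM in MERKO against 2.90, 2.92 and 3.47 CPM in control, a log2 fold change of 0.04 (edgeR adjusted p 0.966).

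**Figure D4:**
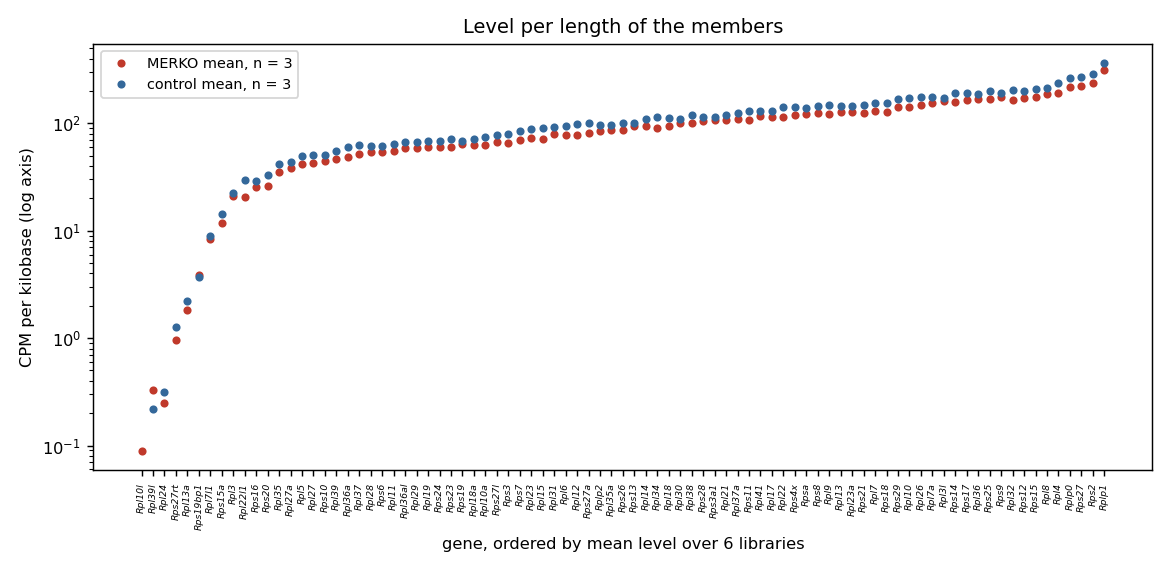
Mean level of the genes in each group (vertical axis, CPM per kilobase of mRNA on a log axis), ordered by the mean over all 6 libraries. Levels run from under 1 for Rpl10l, Rpl39l and Rpl24 to over 300 for Rplp1. The control value of Rpl10l is 0 and is not drawn, and control points lie above MERKO points in nearly all tested genes.

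The members share features of their start sites that the naming rule did not use. RefSeq promoters (GRCm38.p6, 250 bases before to 50 after each start) were matched to 66 of the 86 genes. A TOP tract at the annotated start was scored as a C at the first transcribed base followed by pyrimidines, 5 or more in all. It was found in 14 of 66 members (21.2%) and in 3.01% of all 27025 genes of the promoter table. A pyrimidine run of 8 or more that begins with C, within 40 bases on either side of the start, was found in 68.2% of members and 26.1% of all genes. Windows of 30 bases, from 10 before the start to 20 from it, show the tract in capitals for members described above and for Rps6, the substrate of S6 kinase. The windows are chr14:18270967-18270996 (minus strand) for Rpl15, chr7:118116128-118116157 (minus) for Rps15a, chr3:90213629-90213658 (minus) for Rps27, chr7:141447641-141447670 (plus) for Rplp2, and chr4:86857348-86857377 (minus) for Rps6.
Rpl15: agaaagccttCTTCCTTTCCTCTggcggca
Rps15a: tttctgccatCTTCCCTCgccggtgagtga
Rps27: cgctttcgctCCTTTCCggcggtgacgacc
Rplp2: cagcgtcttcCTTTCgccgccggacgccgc
Rps6: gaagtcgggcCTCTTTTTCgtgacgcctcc

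Rpl22l1 (chr3:28805498-28805527, plus strand) and the first start of Rpl3l (chr17:24727816-24727845, plus) have no such tract at the annotated base. They are shown because these paralogs had the largest and among the smallest differences.
Rpl22l1: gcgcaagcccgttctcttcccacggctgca
Rpl3l: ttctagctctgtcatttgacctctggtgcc

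Median fold changes were close with and without the tract at the annotated base. This split cannot tell TOP mRNAs from others, since a pyrimidine run can lie beside that base. Rpl27a, for example, has no tract at the annotated base but a run of 20 within 40 bases of it. The 13 tested members with a TOP tract at the start had a median log2 fold change of -0.25, with a range of -0.36 to -0.14. The 49 without one had a median of -0.23, with a range of -0.52 to 0.04. The motif CCGGAAG, the letters bound by ETS factors, was searched on both strands and found in 26 of 66 members (39.4%) against 9.93% of all genes. Members with it had a median of -0.24 and those without it -0.23. Both motif strands occur, as in the following stretches before the starts of Rpl15 (chr14:18271022-18271068, minus) and Rps2 (chr17:24719916-24719962, plus), with the motif or its reverse complement in capitals.
Rpl15: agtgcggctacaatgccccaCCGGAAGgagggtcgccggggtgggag
Rps2: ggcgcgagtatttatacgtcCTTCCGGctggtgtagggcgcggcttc

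The letters AAGATGGC, which hold the core bound by YY1, were found on either strand in 9.09% of members and 3.19% of all genes, and TATAAA in 10.6% and 15.7%. A match is a description of these letters and not evidence of binding.

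Members were short. The median mRNA was 774.5 bases, against 2925 bases over all coding genes tested, and 61 of 82 were under 1000 bases, against 6.08% of coding genes. A trend of fold change on length was removed, where length was that of all annotated exons of a gene joined. After this, 81 of 82 genes were still below 0, with a median of -0.18. The trend itself stood at -0.05 at the members. After a trend on expression level was removed, all 82 were below 0, with a median of -0.19.

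The genes that surround the ribosome were read from the same fit. None passed the adjusted threshold in any of these lists. Over all genes tested, 47.9% were below 0 and 3.34% were lower at an unadjusted edgeR p under 0.05. In 7.1% of all genes, every MERKO value lay below every control value. Ribosomal proteins with other names include Rack1 and Fau, and both were below 0. Rack1, a scaffold on the small subunit's head, stood at 181 ± 7.38 CPM in MERKO against 213 ± 30.2 CPM in control (SD, n = 3), and Fau at 43.1 ± 3.12 and 51.7 ± 8.05 CPM. Their log2 fold changes were -0.24 and -0.27, close to the median of the members.

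The host genes of small nucleolar RNAs, which carry guides for rRNA modification in their introns and several of which also begin with a TOP tract, had a lower median than the members. All 9 were below 0, 3 at an unadjusted p under 0.05, with a median log2 fold change of -0.38. Their summed level was 41.4 to 46.8 CPM in MERKO against 52.9 to 59.2 CPM in control, without overlap. Snhg6 stood at 6.27 ± 0.692 CPM in MERKO against 8.71 ± 0.926 CPM in control (SD, n = 3), for a log2 fold change of -0.49 (edgeR adjusted p 0.654). Gas5, a growth-arrest transcript, stood at 14.4 ± 1.23 and 18.2 ± 1.85 CPM, with a log2 fold change of -0.34 (edgeR adjusted p 0.680). Both were named for their low p-values, and both were apart between the groups, as were 3 of the 9 in all. Without control 3 the median of the 9 was -0.29.

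Translation factors of the TOP class, such as Eef1a1 and Eef2, were lower in 13 of 16 with a median of -0.11, and 2 had an unadjusted p under 0.05. Eif3e, a subunit of the initiation factor eIF3, stood at 85.2 ± 3.33 CPM in MERKO against 107 ± 12.8 CPM in control (SD, n = 3, log2 fold change -0.33, edgeR adjusted p 0.671). Eef1b2, an exchange factor for eEF1A, stood at 60.8 ± 2.89 and 72.8 ± 9.54 CPM (-0.26, edgeR adjusted p 0.706). Other initiation factors were lower in 26 of 32 with a median of -0.08, and 2 had an unadjusted p under 0.05. In 9 of the 32, every MERKO value lay below every control value, against 7.1% of all genes, and the reverse held in 0. Their lowest p-values belonged to Eif3m, at 45.4 ± 0.448 and 55.5 ± 7.66 CPM, and Eif3k, at 33.9 ± 1.03 and 40.3 ± 4.97 CPM. The muscle elongation factor Eef1a2 had a log2 fold change of -0.06 and Eef2k, the kinase that inhibits eEF2, one of -0.20.

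Genes that build the ribosome had medians nearer 0. Of 50 ribosome biogenesis genes, 35 were lower and 15 higher with a median of -0.04, and 4 were lower and 1 higher at an unadjusted p under 0.05. Wdr43, a part of the small-subunit processome, stood at 34.3 ± 1.84 CPM in MERKO against 41.5 ± 0.552 CPM in control, and Gnl3 (nucleostemin) at 16.6 ± 1.02 and 20.2 ± 1.35 CPM (SD, n = 3). Both had a log2 fold change of -0.28. Of 15 genes of RNA polymerase I and its factors, 11 were lower with a median of -0.07 and none had an unadjusted p under 0.05. Twistnb, a subunit of the polymerase, stood at 12.3 ± 1.27 and 14.0 ± 0.671 CPM, and Ubtf, the activator of rRNA transcription, at 33.5 ± 2.40 and 37.0 ± 0.707 CPM.

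Of 18 tested regulators around Myc and mTOR, 13 were lower and 5 higher with a median of -0.07. Eif4ebp1, an inhibitor of cap-dependent translation that mTOR phosphorylates, stood at 23.4, 22.8 and 28.8 CPM in MERKO against 32.4, 30.4 and 34.9 CPM in control (log2 fold change -0.38, edgeR adjusted p 0.654). Max, the partner of Myc, stood at 12.2 ± 1.86 and 15.2 ± 0.808 CPM (-0.31, edgeR adjusted p 0.697). In both genes, which were named for their low p-values, the groups did not overlap. This held for 3 of the 18 regulators in all.

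**Figure D5:**
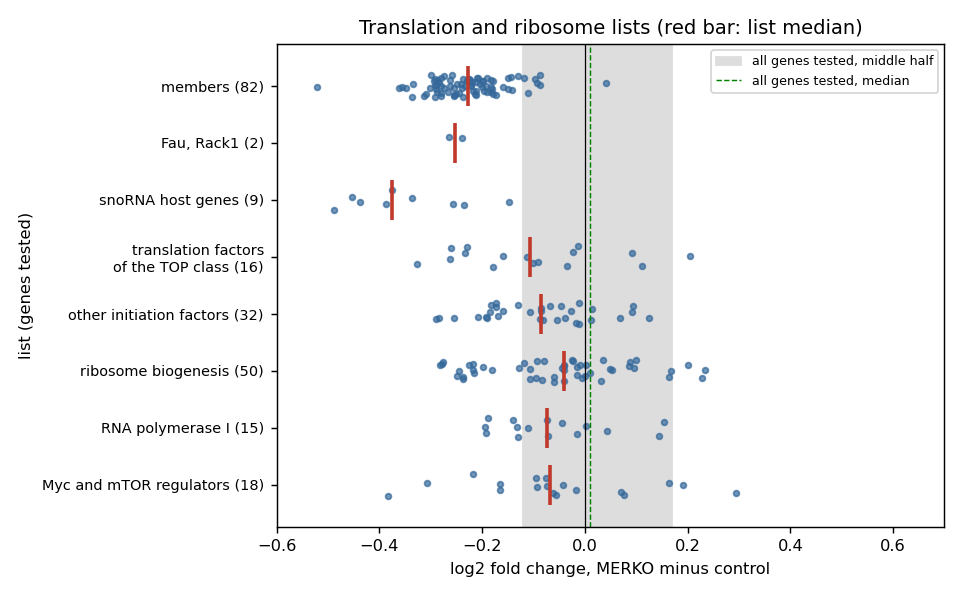
Log2 fold changes (horizontal axis, MERKO minus control) of the members and of 7 related lists, 1 point per tested gene, with red bars at the list medians and grey shading from the first to the third quartile of all genes tested. The medians of the members and of the snoRNA hosts lie left of the shading at -0.23 and -0.38, as do the points of Fau and Rack1, and the other list medians lie within it.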

How the data were processed

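The authors deposited raw counts of reads per gene, unnormalized, in 6 columns, 1 per library. RNA was extracted with Trizol and made into libraries with an Illumina TruSeq kit, per the labels' protocols. STAR 2.5.2b, HTSeq 0.9.1 and DESeq are named with mm10 and GRCm38, per the submitters' processing notes. Neither the annotation release nor the handling of strand, of reads with several placements or of overlapping genes is given in the sources used here. Counts of near-identical copies and overlapping genes are therefore uncertain.

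Groups came from the sample titles. Symbols matched 48349 of 48795 identifiers, and biotypes, coordinates and mRNA lengths (principal isoform) came from GENCODE M21. Genes were filtered with filterByExpr and tested in R 4.3.3 by the quasi-likelihood method of edgeR 4.0.16, with a model of genotype alone, TMM factors, Benjamini-Hochberg adjustment over 13628 genes and a threshold of 0.05. The biological coefficient of variation was 18.6%. CPM are TMM-scaled, and sums and ratios were compared by exact permutation tests, two-sided. Ratios required 10 counts in every library. The code was tested on simulated data.

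The members and gene lists were chosen with earlier results of these data known. Named genes were each tested paralog with its counterpart, the stalk proteins and Rpsa, and per subunit the lowest p-values, the largest and smallest changes and the extreme levels. The 2 lowest p-values of each related list, Fau, Rack1 and Esr1 were also named. A few genes these rules chose are not reported here. Other genes are named as examples of a list or for a feature seen in their values.

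Alternatives were DESeq2 1.42.0, limma-voom (limma 3.58.1), other scalings and filters, removal of rRNA models and mitochondrial DNA genes, a threshold of 0.1, trends on length and expression, the replicate block and leaving out each library. Deviations from the group means of same-numbered MERKO and control libraries correlated across genes with r = 0.52, 0.23 and 0.11. All were above 0.1, so the number was used as a block in an alternative fit, although the labels do not say what a number stands for. The fit as reported is unpaired. MERKO 2 and control 3 correlated as well, at 0.22, and MERKO 3 with control 2, at 0.14, above its r with control 3. No libraries within a group were near duplicates (chi-square over degrees of freedom at least 109.6 for each pair).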

Additional observations from a re-analysis of the deposited data

How the results depend on the processing

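No member passed the threshold of 0.05 in any alternative run. The lowest adjusted p of a member was 0.245 with DESeq2 and 0.113 without a filter, where 83 of 86 were lower, and 0.612 with limma-voom, where all 82 were lower. Over all genes, the count called was 23 with DESeq2, 140 without a filter, 93 without a composition factor and 51 with the replicate block, against 1 in the fit as reported. The number of members at an unadjusted p under 0.05 was 56 with the replicate block, 0 without a composition factor and 3 to 52 when 1 library was left out. For the fits with 1 library left out, the number over all genes was not counted. The median of the members was -0.36 without a composition factor and -0.31 to -0.14 when 1 library was left out. With the replicate block, as in the fit as reported, Esr1 passed the threshold and no gene of the members or of the related lists did. Esr1 had a log2 fold change of -2.08 to -1.84 when 1 library was left out, and its adjusted p was above the threshold without MERKO 1 (0.102), MERKO 2 (0.0576), control 2 (0.109) or control 3 (0.0632). The log2 ratio of the summed level was -0.31 to -0.15 in these fits. Leaving out 1 library, the log2 fold change of Rpl3 ran from -0.17 to 0.011 and that of Rps3a1 from -0.33 to 0.097, both above 0 without control 3. The log2 ratio of Rpl3l to Rpl3 differed by -0.080 to 0.11 when 1 library was left out, at -0.053 without MERKO 2, -0.032 without MERKO 3, -0.013 without control 2 and -0.080 without control 3. The other 373 values of the 25 named members kept their direction and side of the threshold. The cause of these shifts was not tested. The 4 untested genes, Rpl24 and 3 paralogs, had too few counts for a test, so only their counts are stated. Why the counts of Rpl24 were low was not tested.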
